A study of Mus musculus with 22 samples.

Results

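The genes that dock, prime and fuse synaptic vesicles, and those that retrieve vesicle membrane afterwards, were described gene by gene in ribosome-bound mRNA of 6 mouse cell types. The list held 52 genes chosen by function and by symbol, though earlier results of these data were known when it was made. Of these, 52 of 52 were found among the 55385 genes of the deposited tables. All groups were 6-week-old Rpl22 Fl/+ mice of both sexes, in which a Cre driver switches on an HA-tagged copy of the ribosomal protein Rpl22, so that ribosomes of the chosen cells can be immunoprecipitated (RiboTag). Rbp4-Cre was used for dentate gyrus granule cells (hippocampus) and for layer V neurons (cortex), Gabra6-Cre for cerebellar granule cells (cerebellum) and Dlx6a-Cre for inhibitory interneurons (hippocampus, 2 mice pooled per library). Tmem119-cre was used for microglia (cortex), and astrocytes (cortex) came from a line labelled Aldh1-cre and named Aldh1l1 in the methods. Both glial lines were switched on with tamoxifen, which the neuronal lines did not receive. Each cell type was thus reached through 1 driver line, and any tagged ribosomes of other cells in the dissected tissue enter the same library. Each type had 3 replicates. The 4 replicates sequenced in both of 2 batches entered once, with their batch 1 library, while interneurons and microglia were sequenced in batch 2 alone, so that their cell type and their batch cannot be told apart.

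At a synapse, vesicles loaded with transmitter are held near the membrane by the active zone scaffold, primed by Unc13 proteins, and fused by the SNARE complex of synaptobrevin (Vamp), syntaxin and SNAP25. Complexins clamp and assist this complex, and synaptotagmins on the vesicle sense the calcium that enters with an action potential. Most of these steps are served by families of related genes, and neurons differ in the family members they use. Fast sensors such as Syt1 and Syt2 and slower ones such as Syt7 give release different timing.

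Levels are given as TPM, the length-normalised transcript abundance that the authors deposited, summed over each gene's transcripts. Differences between cell types were tested on summed estimated counts with edgeR, and a member was called when its adjusted p was at most 0.05 (Benjamini-Hochberg over the 20524 genes tested) and its difference at least 2-fold. Libraries held 38270477 to 97992957 estimated counts. The markers of dentate granule cells (5 of 5), cerebellar granule cells (5 of 5), interneurons (8 of 8), astrocytes (7 of 7) and microglia (7 of 7) had their highest mean in the cells named. Of the 5 layer V markers, 1 did. Of the 5 excitatory markers, 3 had their highest mean in layer V neurons and 2 in dentate granule cells. They summed to between 2870 and 2977 TPM in layer V neurons and between 4070 and 4588 TPM in dentate granule cells. Glial libraries also held neuronal mRNA: the 10 pan-neuronal markers summed to between 349 and 656 TPM in glia and between 2224 and 5125 TPM in neurons. Interneuron libraries held oligodendrocyte mRNA, with the 7 markers summing to between 3009 and 3224 TPM against 123 to 419 TPM in the other neuronal libraries, 1026 to 1252 TPM in astrocytes and 570 to 664 TPM in microglia. All 5 endothelial markers were highest in microglia, where they summed to between 269 and 398 TPM against at most 57.8 TPM elsewhere. The batch 2 library of layer V replicate 1 was labelled male but had Xist at 2.13 TPM and Ddx3y at 0.0340 TPM, like the batch 1 library of that replicate, which was labelled female. It was used only where alternatives are named.

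The release machinery was mostly neuronal. The 52 genes together made up 1.36% to 2.68% of all TPM in the 12 neuronal libraries and 0.284% to 0.383% in the 6 glial libraries, without overlap. Among neurons the share was lowest in dentate granule cells (1.36%, 1.56% and 1.55%) and highest in cerebellar granule cells (2.68%, 2.67% and 2.62%). In neurons against glia, 43 members were called higher, where 15.9% of all genes tested were, and 1 was called lower, where 30.3% of all genes were. The members' median log2 fold change was 2.30, and the median over all genes was -0.18. Every neuronal library lay above every glial library for 33 of the 52 genes and for 13% of all genes tested. In bulk libraries, fewer cells of a type and less RNA per cell cannot be told apart, and how far neuronal mRNA in glial libraries set the glial levels was not tested.

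**Figure D1:**
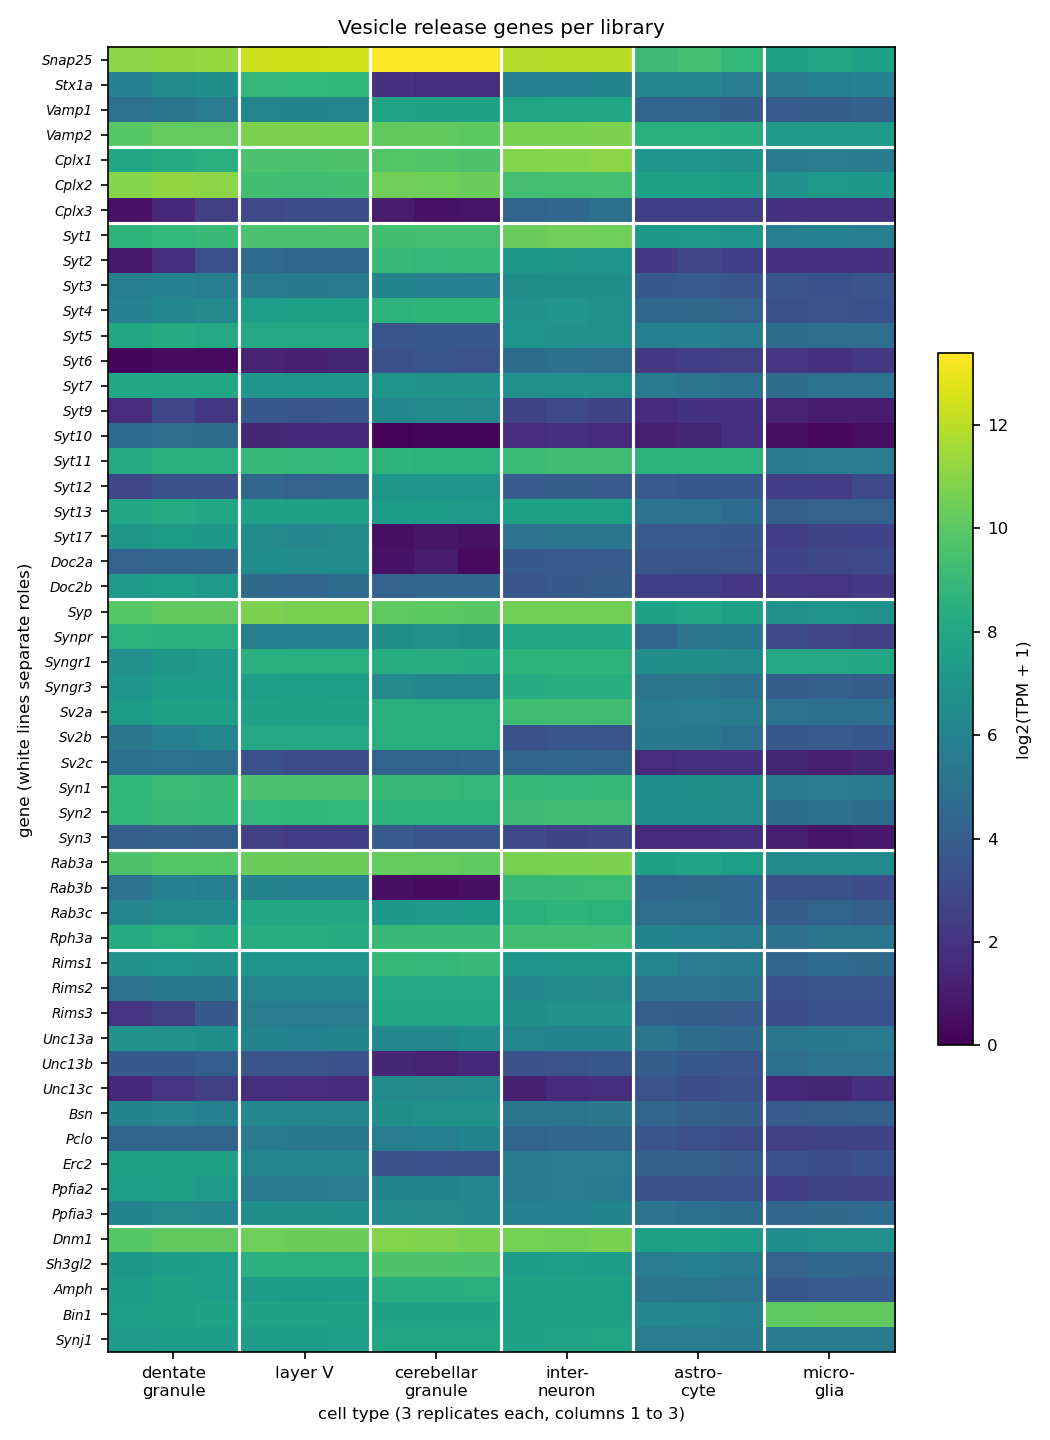
Level of each of the 52 genes (rows, grouped by role between white lines) in each of the 18 libraries (columns, 3 replicates per cell type), as log2(TPM + 1). The 12 neuronal columns are brighter than the 6 glial columns for most genes, and rows such as Syt17, Rab3b and Stx1a are dark in cerebellar granule cells.

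The genes called higher in neurons covered all roles. They included 10 of 10 vesicle membrane proteins and synapsins, 12 of 15 synaptotagmins and Doc2 genes, 9 of 11 active zone and priming genes, 4 of 5 endocytosis genes, 3 of 4 SNARE genes, 3 of 4 Rab3 and rabphilin genes and 2 of 3 complexins. The largest differences were those of Syt2 (log2 fold change 3.68, standard error 0.26, adjusted p = 2.7e-10), Snap25 (3.62, standard error 0.07, adjusted p = 8.2e-19) and Synpr (3.35, standard error 0.14, adjusted p = 6.9e-14). Syt2 was not above glia in every neuronal type. Its means were 505 TPM in cerebellar granule cells and 135 TPM in interneurons. Its dentate libraries (0.852 to 8.55 TPM) overlapped with those of astrocytes (3.61 to 6.01 TPM). Unc13b, a priming factor, was the member called lower (log2 fold change -1.60, standard error 0.05, adjusted p = 9e-16). It lay between 1.56 and 15 TPM in neurons, between 10.6 and 14.5 TPM in astrocytes and between 28.0 and 33.7 TPM in microglia. Without cerebellar granule cells, whose Unc13b level was the lowest, its log2 fold change was -0.92. Of the 8 members not called, Stx1a, Doc2a, Rab3b and Syt17 were near 0 in cerebellar granule cells, which lowers a mean taken over neuronal types on the log scale.

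The means of the highest and the lowest neuronal type were at least 2-fold apart for 39 of 52 genes and at least 10-fold apart for 16, shares near the 72.9% and 25.4% of all genes tested. Against the mean of the other 3 neuronal types, 12 members were called higher in dentate granule cells and 15 lower, where 17% and 8.59% of all genes were. In layer V neurons 8 were higher and 6 lower (17.3% and 9.21% of all genes), in cerebellar granule cells 15 were higher and 10 lower (14.5% and 29.1%), and in interneurons 11 were higher and 8 lower (18% and 6.64%). Read against these backgrounds, the shares of members called lower in dentate granule cells and interneurons and higher in cerebellar granule cells were about 2 times those of all genes or more, the share called lower in cerebellar granule cells was smaller than that of all genes, and the other shares lay near theirs. The members' median log2 fold changes were -0.41, 0.18, 0.12 and 0.11 in that order of cell types, beside 0.10, 0.04, -0.21 and 0.08 over all genes. Of the 10 pan-neuronal markers, 1 was called higher and 5 lower in dentate granule cells, with a median log2 fold change of -1.08. Layer V neurons had 5 and 0 (median 0.88), cerebellar granule cells 4 and 2 (0.51) and interneurons 1 and 1 (-0.10). How far the members' differences share in this was not tested. Levels near 0 in cerebellar granule cells lift the contrasts against the other neurons for the other 3 types, and high levels there lower them. The calls against each of the other 3 neuronal types are therefore given as well. With cerebellar granule cells left out of the reference, layer V neurons kept 3 of the 8 higher and 2 of the 6 lower calls, dentate granule cells 8 of 12 and 11 of 15, and interneurons 9 of 11 and 2 of 8. Those lost or turned in layer V neurons were Cplx3, Syt5, Syt17, Rab3b and Unc13b among the higher and Syt2, Syt6, Syn3 and Unc13c among the lower. Among the lower calls, dentate granule cells lost Rims2, Unc13c, Pclo and Sh3gl2. Interneurons lost Cplx2, Syt9, Syt12, Unc13c, Bsn and Sh3gl2. Of these lost lower calls, all but Cplx2 were of genes with their highest mean in cerebellar granule cells. Among the higher calls, dentate granule cells lost Syt5, Doc2a, Rab3b and Unc13b, and interneurons lost Syt17 and Syngr3. Each of these genes had its lowest neuronal mean in cerebellar granule cells.

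**Figure D2:**
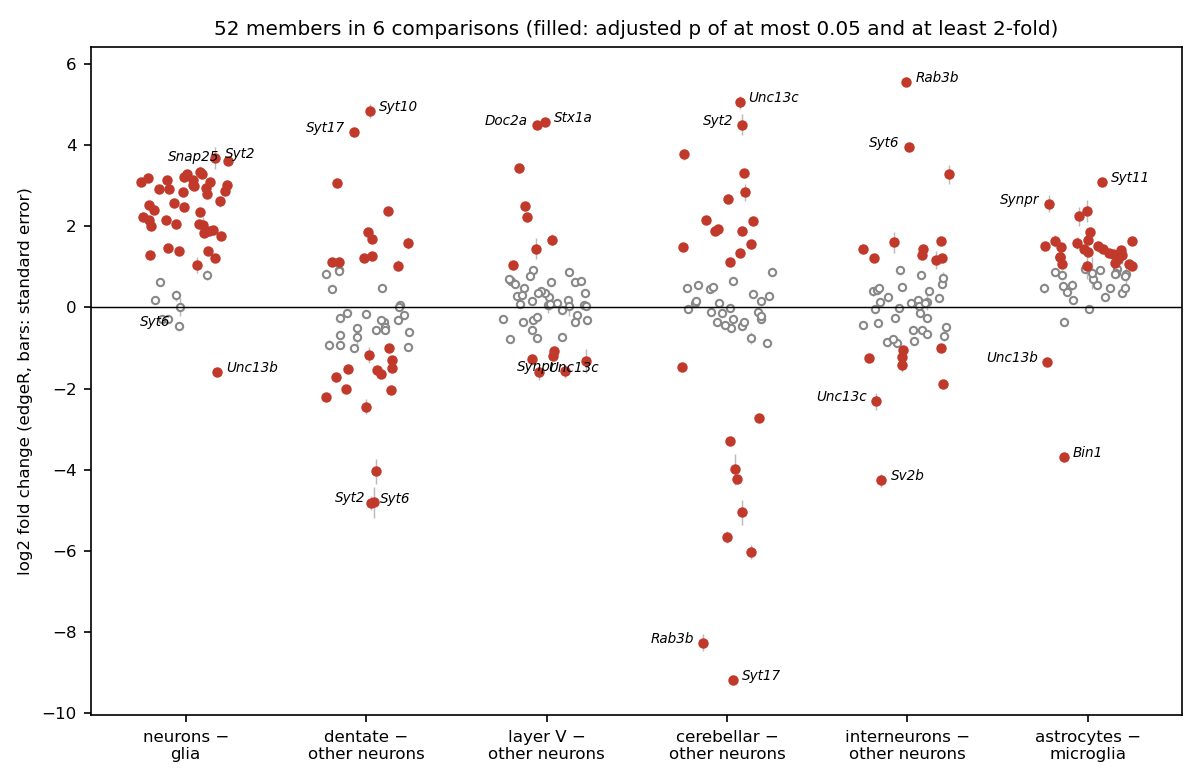
Log2 fold change with its standard error (edgeR) of each of the 52 genes in 6 comparisons, where filled points were called and open points were not. Points for neurons against glia lie mostly above 0, and the widest spread, from Syt17 at -9.18 to Unc13c at 5.06, is that of cerebellar granule cells.

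When a call was required against each of the other 3 neuronal types, dentate granule cells were higher in 4 members (Syt10, Doc2b, Erc2 and Ppfia2) and lower in 5 (Cplx1, Syt2, Syt6, Syngr1 and Rims3), where 4.18% and 2.09% of all genes passed that rule. Layer V neurons were higher in 2 (Stx1a and Doc2a) and lower in 0, where 4.41% and 1.64% of all genes passed. By edgeR at an unadjusted p under 0.05 and any fold, 2 members were lower in layer V neurons than in each of the others, and by DESeq2 under the full rule 0 were. Cerebellar granule cells were higher in 7 (Syt2, Syt9, Syt12, Rims1, Rims2, Rims3 and Unc13c) and lower in 9 (Stx1a, Cplx3, Syt5, Syt10, Syt17, Doc2a, Rab3b, Unc13b and Erc2), where 7.33% and 19.0% of all genes passed. Interneurons were higher in 4 (Cplx1, Cplx3, Syt6 and Rab3b) and lower in 1 (Sv2b), where 5.62% and 1.45% of all genes passed. With 52 members, these counts are small, and several shares lie close to the background. The order of the 4 neuronal types was also followed step by step. Of 156 steps between neighbours in the order of mean TPM, 120 passed an adjusted p of 0.05 in the same direction in edgeR's pair tests, and for 21 members all 3 steps did. In 19 steps the sign on counts was opposite to the order in TPM, in 8 of them past that threshold, such as Unc13b in interneurons over layer V neurons (log2 difference -0.43, adjusted p = 0.00018) and Syt5 in dentate granule cells over layer V neurons (-0.28, adjusted p = 0.0013).

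Among the SNARE genes, Snap25 was the most abundant member of all, and the syntaxin gene Stx1a separated the neurons most. Snap25, which supplies helices of the SNARE complex on the membrane side, stood at 10561, 10712 and 10686 TPM in cerebellar granule cells and at 2112, 2259 and 2426 TPM in dentate granule cells. Layer V neurons (5441 to 5584 TPM) and interneurons (3764 to 4172 TPM) lay between, and each of the 3 steps in this order passed the test. Stx1a (ENSMUSG00000007207.10, chromosome 5 from 135023482 to 135051100 of GRCm38) stood at 474, 462 and 442 TPM in layer V neurons but at 2.70, 2.31 and 2.37 TPM in cerebellar granule cells. Dentate granule cells (59.8 to 101 TPM) and interneurons (60.0 to 61.9 TPM) lay between them, and the libraries of neither overlapped with those of layer V neurons or cerebellar granule cells. Stx1a was higher in layer V neurons than in dentate granule cells by 2.79 on the log2 scale (adjusted p = 7.3e-12) and higher in interneurons than in cerebellar granule cells by 4.43 (adjusted p = 4.3e-14).

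Synaptobrevin was mainly Vamp2 everywhere, with a larger part of Vamp1 in 2 neuronal types. Vamp1 stood at 226, 211 and 212 TPM in cerebellar granule cells and at 243, 254 and 260 TPM in interneurons, which did not differ from each other in edgeR (log2 difference 0.07, adjusted p = 0.48). It stood at 63.4 to 69.4 TPM in layer V neurons and at 31.5, 36.6 and 48.8 TPM in dentate granule cells, below both. Vamp2 lay between 946 and 1719 TPM over all neuronal libraries. Vamp1 was 16.7% ± 0.762 of the Vamp1 and Vamp2 sum in cerebellar granule cells, 13.2% ± 0.122 in interneurons, 3.81% ± 0.185 in layer V neurons and 3.44% ± 0.555 in dentate granule cells (SD, n = 3). The ratio of Vamp1 to Vamp2 in cerebellar granule cells did not overlap with that of the other 9 neuronal libraries (exact permutation test, two-sided, p = 0.0091, adjusted p = 0.021 over 72 tests). The adjusted p was 0.082 for dentate granule cells, 0.30 for layer V neurons and 0.33 for interneurons.

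Complexins, small proteins that bind the assembled SNARE complex, showed opposite choices in interneurons and dentate granule cells. Cplx1 stood at 1943, 1998 and 2104 TPM in interneurons and at 241, 300 and 330 TPM in dentate granule cells. Cplx2 stood at 671, 687 and 685 TPM in interneurons and at 1971, 2305 and 2113 TPM in dentate granule cells. Cplx1 was thus 74.1% ± 0.495 of complexin TPM in interneurons, 54.6% ± 0.376 in layer V neurons, 38.4% ± 0.297 in cerebellar granule cells and 12.0% ± 1.36 in dentate granule cells (SD, n = 3). The log2 ratio of Cplx1 to Cplx2 differed from that of the other neuronal libraries in interneurons by 2.66 and in dentate granule cells by -3.27, in both cases without overlap (exact permutation test, two-sided, adjusted p = 0.021 for each). The summed complexin level differed less, at 2720 ± 93.5 TPM in interneurons, 2423 ± 198 in dentate granule cells, 2206 ± 106 in cerebellar granule cells and 1427 ± 30.9 in layer V neurons. Cplx3, best known from retina, was rare. It stood at 18.9, 21.8 and 29.2 TPM in interneurons, at 6.84 to 8.04 TPM in layer V neurons, at 0.600, 1.81 and 4.78 TPM in dentate granule cells and at 0.586 to 0.997 TPM in cerebellar granule cells. The TPM of both granule cell types overlapped, while on counts dentate granule cells (50, 96 and 276) lay above cerebellar granule cells (29, 33 and 20), by 2.44 on the log2 scale (adjusted p = 5.9e-05). Cplx3 was higher in interneurons than in layer V neurons by 1.37 on the log2 scale (adjusted p = 0.00093).

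Of the fast calcium sensors, Syt1 was present in all neurons, and Syt2 and Syt9 were high in cerebellar granule cells. Syt1 stood between 1305 and 1412 TPM in interneurons, between 738 and 760 in layer V neurons, between 655 and 679 in cerebellar granule cells and between 413 and 525 in dentate granule cells. Syt2 (ENSMUSG00000026452.15, chromosome 1 from 134646677 to 134762593) stood at 521, 484 and 508 TPM in cerebellar granule cells, at 140, 135 and 131 TPM in interneurons and at 24.4, 22.1 and 22.7 TPM in layer V neurons. In dentate granule cells it stood at 0.852, 2.42 and 8.55 TPM, below every other neuronal library but with a wide spread between replicates that Syt1 did not show. Replicate 1 was the lowest and replicate 3 the highest also for Rims3 (3.26, 5.00 and 12.9 TPM), Cplx3, Stx1a and Sv2b. Markers of other cells differed too. Of the 8 interneuron markers, 7 were highest in replicate 3, although their sums were 156, 174 and 161 TPM. All 7 astrocyte markers (sums 72.2, 54.3 and 128 TPM) and all 7 oligodendrocyte markers (sums 293, 318 and 419 TPM) were highest there, as were 9 of the 10 pan-neuronal markers (sums 2224, 2707 and 2895 TPM), and their part in these values was not tested. Without dentate replicate 3, the log2 fold change of Syt2 in dentate granule cells against the other neurons went from -4.80 to -6.02, and that of Rims3 from -4.04 to -4.87. Syt9 stood at 75.1, 81.4 and 77.2 TPM in cerebellar granule cells and at 11.7 TPM or less in every other neuronal library. Together, Syt1 made up 53.5% ± 1.11 of the TPM of these 3 sensors in cerebellar granule cells, with 40.3% ± 1.38 from Syt2 and 6.22% ± 0.279 from Syt9, while Syt1 made up 90.6% ± 0.518 in interneurons, 95.6% ± 0.141 in layer V neurons and 98.4% ± 0.759 in dentate granule cells (SD, n = 3). The log2 ratio of Syt2 to Syt1 in cerebellar granule cells was -0.33, -0.49 and -0.40, above the range of -8.76 to -3.22 in the other neurons (exact permutation test, two-sided, adjusted p = 0.021).

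**Figure D3:**
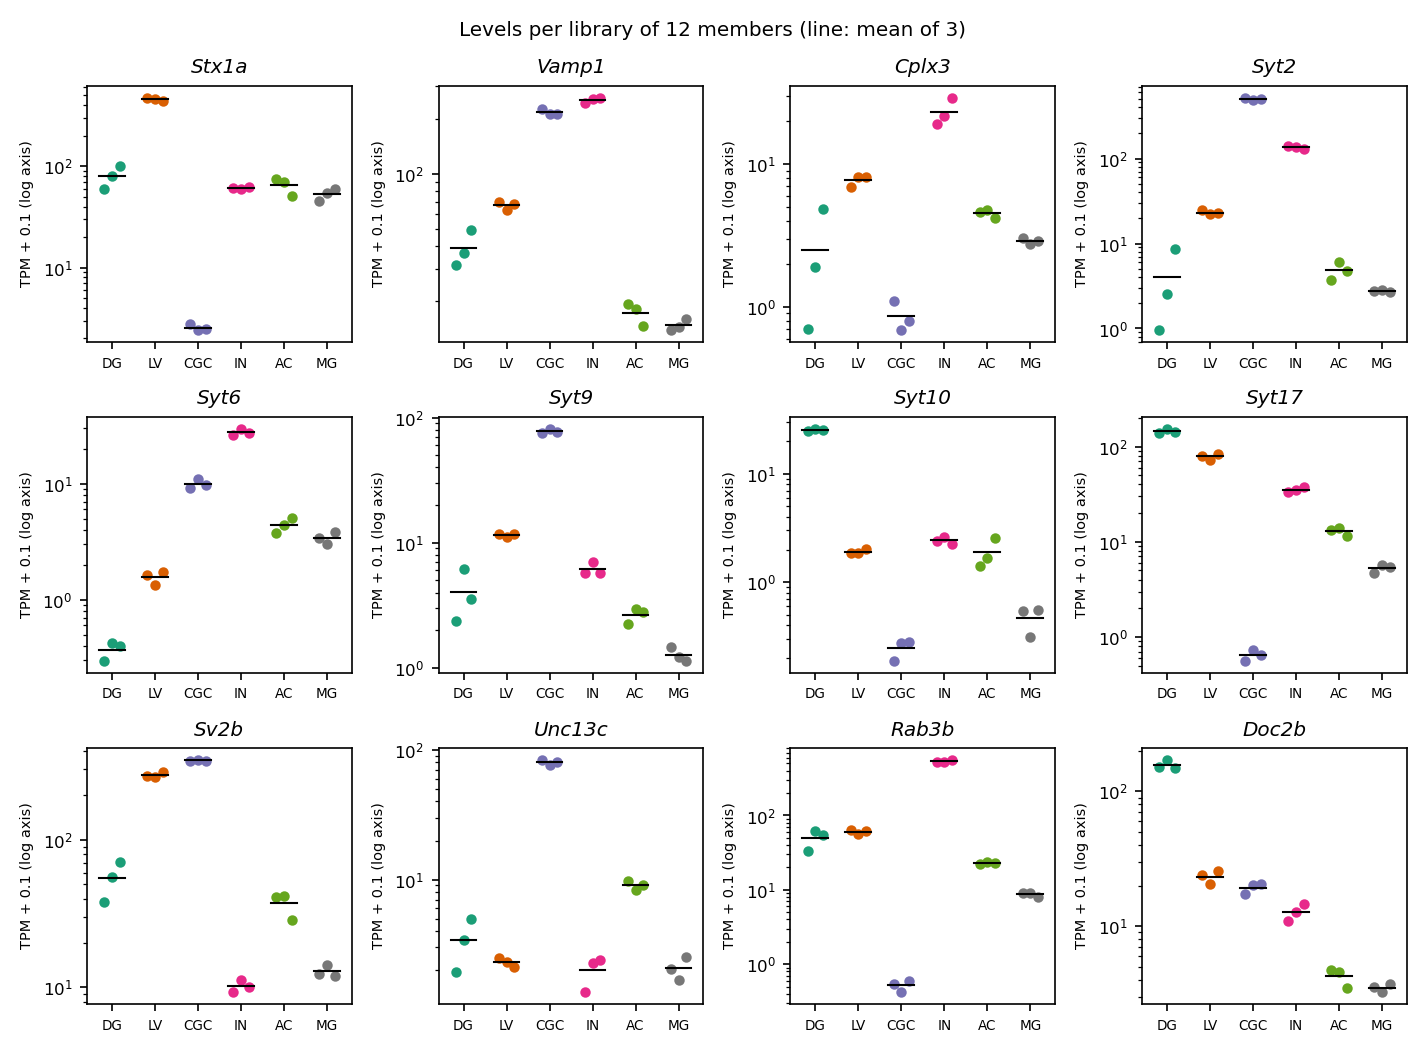
TPM plus 0.1 on a log axis of 12 members in each of the 18 libraries (points) with the mean of 3 (line), for dentate granule cells (DG), layer V neurons (LV), cerebellar granule cells (CGC), interneurons (IN), astrocytes (AC) and microglia (MG). Stx1a, Syt17 and Rab3b lie lowest in CGC, Syt2, Syt9 and Unc13c lie highest there, and Syt10 and Doc2b lie highest in DG.

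The slower or non-classical synaptotagmins drew other lines between the neurons. Syt7, a high-affinity calcium sensor tied to asynchronous release and facilitation, stood at 235, 251 and 249 TPM in dentate granule cells and between 105 and 127 TPM in the other 9 neuronal libraries. Its log2 ratio to Syt1 was -0.93 ± 0.13 (SD, n = 3) in dentate granule cells, above every other neuronal library, and -3.67 ± 0.05 in interneurons, below every other one (exact permutation test, two-sided, adjusted p = 0.021 for each). On counts the step in Syt7 from layer V neurons to dentate granule cells was smaller, 0.46 on the log2 scale (adjusted p = 0.00013). Syt10 (ENSMUSG00000063260.2, chromosome 15 from 89782393 to 89841860), known from secretion of insulin-like growth factor in the olfactory bulb, stood at 24.9, 26.1 and 25.3 TPM in dentate granule cells and at 2.53 TPM or less elsewhere among neurons. Its log2 fold change in dentate granule cells against the other neurons was 4.85 (standard error 0.17, adjusted p = 5.5e-14). Syt6 stood at 26.0, 29.7 and 27.0 TPM in interneurons, at 9.10 to 10.9 TPM in cerebellar granule cells, at 1.25 to 1.63 TPM in layer V neurons and at 0.195 to 0.320 TPM in dentate granule cells, with no overlap between types. Syt12 stood at 135, 131 and 121 TPM in cerebellar granule cells and between 6.11 and 20.1 TPM in other neurons. Syt4, which lacks full calcium binding, stood between 407 and 431 TPM in cerebellar granule cells, 180 and 195 in layer V neurons, 106 and 124 in interneurons and 60.7 and 77.6 in dentate granule cells.

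Syt17 and Syt5 were lowest in cerebellar granule cells, also below every glial library. Syt17 stood at 137, 154 and 142 TPM in dentate granule cells, at 71.9 to 84.3 TPM in layer V neurons and at 32.9 to 37.5 TPM in interneurons, against 0.455, 0.635 and 0.543 TPM in cerebellar granule cells (log2 fold change -9.18 against the other neurons, standard error 0.11, adjusted p = 3.3e-20). Its call as higher in interneurons (log2 fold change 1.43) rested on that low level: with cerebellar granule cells left out of the reference, it was -1.83. Syt5 stood between 251 and 307 TPM in dentate granule cells and layer V neurons, between 105 and 119 TPM in interneurons and at 11.0, 11.8 and 11.8 TPM in cerebellar granule cells. Syt3, Syt11 and Syt13 were spread evenly by comparison, with neuronal libraries at 42.0 to 99.8, 299 to 592 and 151 to 302 TPM, and none of them was called in any neuronal type. The 13 synaptotagmins summed to 1905 ± 147 TPM in dentate granule cells, 2195 ± 23.3 in layer V neurons, 2552 ± 23.1 in cerebellar granule cells and 2794 ± 80.4 in interneurons, a narrower range than that of most single genes.

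The Doc2 proteins, soluble calcium sensors of spontaneous and asynchronous release, were split between cell types. Doc2b stood at 152, 172 and 148 TPM in dentate granule cells and between 10.9 and 25.5 TPM in the other neurons. Doc2a stood at 89.3, 85.9 and 88.1 TPM in layer V neurons, between 12.6 and 21.8 TPM in dentate granule cells and interneurons and between 0.290 and 1.10 TPM in cerebellar granule cells. Doc2a was 79.1% ± 1.53 of both in layer V neurons, 51.1% ± 2.78 in interneurons, 11.1% ± 1.51 in dentate granule cells and 3.30% ± 1.91 in cerebellar granule cells (SD, n = 3). The ratio of Doc2b to Doc2a was below every other neuronal library in layer V neurons and above every other one in cerebellar granule cells (exact permutation test, two-sided, adjusted p = 0.021 for each). Doc2a shares exon bases with Ino80e on the opposite strand. In all, 21 of the 52 members share exon bases with another gene, on the opposite strand except for Bsn, and whether the counting used strand is not given in the sources used here.

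SV2 proteins are vesicle glycoproteins that support priming, and their choice set interneurons apart. Sv2b (ENSMUSG00000053025.13, chromosome 7 from 75114894 to 75309262) stood between 9.17 and 11.1 TPM in interneurons, against 38.0, 55.7 and 70.5 TPM in dentate granule cells, 265 to 288 TPM in layer V neurons and 342 to 349 TPM in cerebellar granule cells. Cerebellar granule cells and layer V neurons did not differ in Sv2b by edgeR (log2 difference 0.14, adjusted p = 0.38). Sv2a stood between 602 and 613 TPM in interneurons, above every other neuronal library (167 to 358 TPM). Sv2a was 95.2% ± 0.275 of SV2 TPM in interneurons, 68.9% ± 2.70 in dentate granule cells, 48.8% ± 0.994 in cerebellar granule cells and 41.2% ± 1.01 in layer V neurons, and Sv2b was 1.58% ± 0.136, 20.0% ± 3.87, 48.5% ± 0.782 and 57.1% ± 1.10 in the same order (SD, n = 3). Sv2c was a minor form, with its largest share, 11.1% ± 1.19, in dentate granule cells. The log2 ratio of Sv2b to Sv2a in interneurons lay 5.46 below the mean of the other neurons, without overlap (exact permutation test, two-sided, adjusted p = 0.021).

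**Figure D4:**
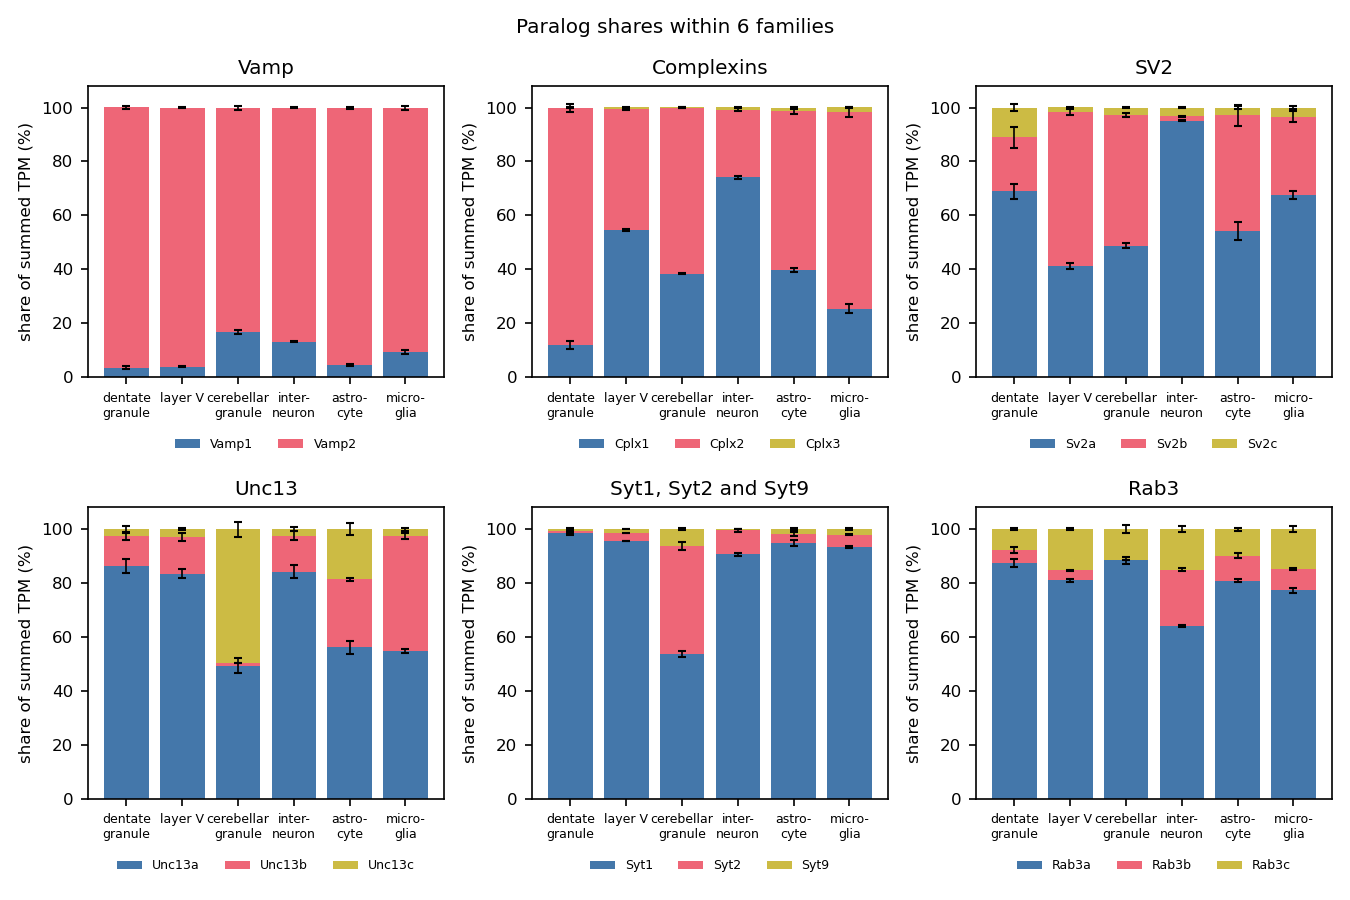
Share of each paralog in the summed TPM of its family (stacked bars, mean of 3 replicates, error bars SD) in 6 cell types for Vamp, complexins, SV2, Unc13, the sensors Syt1, Syt2 and Syt9, and Rab3. Cplx1 takes 74.1% of complexin TPM in interneurons and 12.0% in dentate granule cells, and Unc13c takes 49.6% of Unc13 TPM in cerebellar granule cells and at most 18.7% elsewhere.

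Among synapsins, which tether vesicles in the reserve pool, Syn3 was the one called between neuronal types. Syn1 lay between 452 and 769 TPM and Syn2 between 402 and 604 TPM over all neuronal libraries. Syn3, the minor form, stood between 15.3 and 16.4 TPM in dentate granule cells, where it was called higher (log2 fold change 1.13), and between 4.03 and 4.73 TPM in layer V neurons, where it was called lower (-1.06). The ratio of Syn2 to Syn1 in layer V neurons (log2 -0.71 ± 0.03) lay below, and that in interneurons (0.25 ± 0.06) above, every other neuronal library (SD, n = 3, exact permutation test, two-sided, adjusted p = 0.021 for each). Syn1 is shown here with its promoter because it holds short motifs often discussed for neuronal genes. Of the 52 members, 38 had at least 1 promoter in the RefSeq table (GRCm38.p6), and the 250 bases before each start were searched on both strands. TTCAGCACC, the left part of the RE1 element that REST binds, was in the promoters of Syn1 and Ppfia3 and in 0.301% of all 32851 promoters. TGACGTCA, the cAMP response element, was in those of Syn1 and Sh3gl2 and in 1.55% of all promoters. The 250 bases before the Syn1 start (GRCm38.p6, chrX:20920919-20921168, minus strand), with both motifs in capitals, read 5′ to 3′:
Syn1: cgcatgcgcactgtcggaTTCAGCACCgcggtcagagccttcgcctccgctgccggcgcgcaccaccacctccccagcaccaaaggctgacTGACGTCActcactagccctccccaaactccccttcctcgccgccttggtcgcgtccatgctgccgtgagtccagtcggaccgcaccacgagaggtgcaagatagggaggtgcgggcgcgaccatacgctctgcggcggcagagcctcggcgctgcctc

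Synpr, which encodes synaptoporin, a vesicle protein related to synaptophysin, was both a matter of level and of start site. Synpr (ENSMUSG00000056296.17, chromosome 14 from 13284780 to 13616340) stood at 374, 361 and 349 TPM in dentate granule cells, at 232, 246 and 263 TPM in interneurons, at 98.6, 110 and 102 TPM in cerebellar granule cells and at 57.6, 59.5 and 59.2 TPM in layer V neurons, and each step passed the test. Synaptophysin itself, Syp, lay between 961 and 1713 TPM over all neuronal libraries. Layer V neurons, lowest in Synpr, also read another transcript of it. Synpr-202 held 71.4%, 76.8% and 71.0% of the gene's TPM in layer V neurons, at most 0.552% in dentate and cerebellar granule cells, and 4.72% to 6.44% in interneurons. Synpr-201 held 95% to 98.1% in both granule cell types and 90.6% to 92.3% in interneurons. In astrocytes and microglia, from the same tissue as layer V neurons, Synpr-202 held 45.9% to 59.6%. By the annotation (GENCODE, GRCm38) Synpr-201 starts at 13284780 and Synpr-202 at 13454029. RefSeq lists a start at the first of these positions and one 71 bases before the second, 169178 bases apart. The 250 bases before each RefSeq start are shown because they precede the transcripts that differ between cell types, with CG dinucleotides in capitals and read 5′ to 3′ on the plus strand:
Synpr, upstream start: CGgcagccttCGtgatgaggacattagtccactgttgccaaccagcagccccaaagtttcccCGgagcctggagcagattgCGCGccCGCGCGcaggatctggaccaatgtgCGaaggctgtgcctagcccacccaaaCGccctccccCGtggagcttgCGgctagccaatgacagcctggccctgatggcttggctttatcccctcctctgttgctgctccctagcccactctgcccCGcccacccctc
Synpr, internal start: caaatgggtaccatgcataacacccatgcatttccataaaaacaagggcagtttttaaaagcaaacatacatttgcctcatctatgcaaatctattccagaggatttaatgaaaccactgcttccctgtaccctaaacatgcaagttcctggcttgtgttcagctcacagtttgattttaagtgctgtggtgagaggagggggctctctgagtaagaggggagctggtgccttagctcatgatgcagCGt

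The window before the upstream start (chr14:13284530-13284779), used in granule cells and interneurons by transcript share, held 13 CG dinucleotides and was 64.0% G and C. The window before the internal start (chr14:13453708-13453957) held 1 CG dinucleotide and was 44.4% G and C. By the annotation this start is that of Synpr-205, and Synpr-202, which led in layer V neurons, starts 71 bases after it. The median over all 32851 windows was 6.00 CG dinucleotides. Transcript shares were estimated by kallisto from reads shared between transcripts, the shares were chosen for display after they were seen, and they were not tested.

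Rab3 proteins are small GTPases on the vesicle that bind Rims and rabphilin. Rab3a was the main form in all neurons (806 to 1705 TPM). Rab3b (ENSMUSG00000003411.10, chromosome 4 from 108879063 to 108943324) stood at 530, 519 and 563 TPM in interneurons, at 56.9 to 63.4 TPM in layer V neurons, at 32.7, 61.3 and 54.6 TPM in dentate granule cells and at 0.447, 0.320 and 0.489 TPM in cerebellar granule cells. Interneurons lay above layer V neurons by 2.92 on the log2 scale (adjusted p = 2.3e-12), and dentate above cerebellar granule cells by 6.97 (adjusted p = 6.7e-15). Rab3b was called higher in dentate granule cells (log2 fold change 1.03) and in layer V neurons (1.67) against the other neurons. With cerebellar granule cells left out of the reference these values turned to -1.94 and -1.22. Rab3b was 20.8% ± 0.609 of Rab3 TPM in interneurons and 0.0325% ± 0.00776 in cerebellar granule cells (SD, n = 3). Rab3c lay highest in interneurons (360 to 419 TPM) and lowest in dentate granule cells (67.0 to 88.0 TPM). The rabphilin gene Rph3a lay between 310 and 629 TPM and was not called in any neuronal type.

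At the active zone, the Rims scaffold genes rose together in cerebellar granule cells, where each of the 3 passed against each of the other neuronal types. Rims1 stood at 503, 486 and 544 TPM there and between 111 and 137 TPM in the other 9 neuronal libraries. Rims2 stood between 269 and 290 TPM there and between 32.8 and 81.2 TPM elsewhere among neurons. Rims3 stood between 230 and 242 TPM in cerebellar granule cells, 101 and 109 in interneurons and 47.4 and 50.5 in layer V neurons. The 3 genes summed to 1026 ± 37.4 TPM in cerebellar granule cells and to between 162 and 317 TPM, as means, in the other neurons. The large scaffolds Bsn (101 to 117 TPM) and Pclo (50.7 to 65.2 TPM) were also highest in cerebellar granule cells, where both were called against the mean of the other neurons. The log2 fold change of Bsn was 1.11, and within batch 1, which leaves interneurons out of the reference, it was 0.84.

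Unc13 proteins, which open syntaxin for SNARE assembly, were divided most clearly by Unc13c. Unc13c (ENSMUSG00000062151.13, chromosome 9 from 73479422 to 73968966) stood at 84.0, 77.0 and 80.2 TPM in cerebellar granule cells and between 1.25 and 4.85 TPM in the other 9 neuronal libraries (log2 fold change 5.06, standard error 0.16, adjusted p = 3.7e-15). Unc13a stood at 75.0 to 89.5 TPM in the same cells, so that Unc13c made up 49.6% ± 2.76 of Unc13 TPM there and Unc13a 49.3% ± 2.76 (SD, n = 3). In dentate granule cells, layer V neurons and interneurons, Unc13a made up 86.3% ± 2.48, 83.5% ± 1.57 and 84.2% ± 2.42. Unc13b was 1.05% ± 0.0370 in cerebellar granule cells and between 11.0% and 13.6%, as means, in the other neurons. The log2 ratio of Unc13c to Unc13a lay 4.97 above, and that of Unc13b to Unc13a 2.73 below, the mean of the other neurons in cerebellar granule cells, both without overlap (exact permutation test, two-sided, adjusted p = 0.021 for each). Unc13a was highest in dentate granule cells, at 111, 109 and 100 TPM, without being called there.

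A pair of scaffold partners was highest in dentate granule cells instead. Erc2 stood at 195, 203 and 208 TPM there, at 70.1 to 74.7 TPM in layer V neurons, at 46.6 to 49.5 TPM in interneurons and at 8.50 to 9.05 TPM in cerebellar granule cells, with each step past the test. Ppfia2, a liprin of the active zone scaffold, stood at 179, 184 and 151 TPM in dentate granule cells and between 44.3 and 71.8 TPM elsewhere among neurons. Ppfia3 lay between 60.0 and 101 TPM over all neuronal libraries.

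Among endocytosis genes the neurons differed less. Dnm1, the neuronal dynamin that cuts vesicles from the membrane, lay between 956 and 1814 TPM, Amph between 158 and 339 TPM and Synj1 between 150 and 243 TPM over all neuronal libraries. Sh3gl2, which encodes endophilin A1, was the exception, at 790, 804 and 778 TPM in cerebellar granule cells, 358 to 366 TPM in layer V neurons, 169 to 180 TPM in interneurons and 139 to 175 TPM in dentate granule cells. Interneurons and dentate granule cells did not differ in Sh3gl2 by edgeR (log2 difference 0.05, adjusted p = 0.57). Bin1 lay between 181 and 213 TPM in every neuronal library.

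Over all 18 paralog pairs and 4 neuronal types, 31 of 72 ratio tests passed an adjusted p of 0.05. These were 10 of 18 pairs in dentate granule cells, 9 in interneurons, 7 in cerebellar granule cells and 5 in layer V neurons. The smallest p this design can give is 0.0091 (2 of 220 splits, two-sided). The 31 were those in which the type did not overlap with the other neuronal libraries. The test treats all neuronal libraries as interchangeable, though they come as close replicates of each type. A type that is highest or lowest of the 4 without overlap therefore passes, whichever genes are paired. Other gene pairs were not counted, so the 31 are not read as a result about these families. The pairs share genes and libraries, so the tests are not independent. With a pseudocount of 1 TPM in place of 0.1, or with the batch 2 libraries, 0 of the 31 changed sign.

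Between the glia, members were mostly higher in astrocytes: 27 were called higher than in microglia and 2 lower, where 23.1% and 21.1% of all genes were. The members' median log2 fold change was 1.02, beside 0.04 over all genes. The 10 pan-neuronal markers moved the same way, with 4 called higher in astrocytes and a median log2 fold change of 0.72, and their part in the members' difference was not tested. Syt11, a synaptotagmin without calcium binding, was called highest (log2 fold change 3.10, standard error 0.06, adjusted p = 7.3e-18), at 381, 387 and 384 TPM in astrocytes and 45.9, 50.0 and 50.3 TPM in microglia. Bin1, an amphiphysin relative that shapes endocytic membrane, was called lowest (log2 fold change -3.69, standard error 0.06, adjusted p = 9.5e-19), at 1079, 1093 and 1099 TPM in microglia and 54.0 to 73.8 TPM in astrocytes. Unc13b was the other call, at -1.34. The part of the endothelial mRNA in the microglia values of these genes was not tested.

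Set beside layer V neurons, the neurons of the same tissue, a few members stood out from the general drop in glia. In astrocytes 43 members were called lower than in layer V neurons and 2 higher, where 21.3% and 26.3% of all genes were. In microglia 48 were called lower and 3 higher, where 27.6% and 31.3% were. As a percentage of the layer V mean TPM, the 10 pan-neuronal markers stood at 7.68% to 22.3% in astrocytes and 4.75% to 14.0% in microglia, with medians of 13.3% and 8.36%. The members had medians of 21.9% and 11.9%. Unc13c stood at 407% in astrocytes (9.71, 8.25 and 8.97 TPM, log2 fold change 2.01, standard error 0.22, adjusted p = 2.2e-07). Syt6 stood at 293% in astrocytes and 224% in microglia (log2 fold changes 1.65 and 1.17), Syt11 at 79.8% in astrocytes, and Unc13b at 310% in microglia (log2 fold change 1.48). Mean Syt6 was only 4.31 TPM in astrocytes, 3.31 in microglia and 1.47 in layer V neurons, and was highest in interneurons (27.5 TPM). The 8 interneuron markers summed to between 98.3 and 151 TPM in astrocytes, 37.3 and 44.7 in microglia and 34.8 and 38.3 in layer V neurons. The part of interneuron mRNA in the Syt6 values was not tested. Bin1 stood at 528% in microglia (log2 fold change 1.92, standard error 0.06, adjusted p = 8.3e-16) and 31.4% in astrocytes. Microglia were sequenced in batch 2 and layer V neurons in batch 1, so cell type and batch cannot be told apart in these values.

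Bin1 and Syngr1 also changed transcript between neurons and microglia. Bin1-201 held 81.7% to 91.7% of Bin1 TPM in granule cells of both kinds and layer V neurons, 68.5% to 69.6% in interneurons, 35.8% to 42.8% in astrocytes and 1.73% to 1.77% in microglia. Bin1-205 held 55.3% to 59.1% and Bin1-206 31.9% to 34.6% in microglia. In interneurons Bin1-205 held 11.5% to 13.5%, against at most 1.09% in the other neuronal libraries, and these libraries also carried the oligodendrocyte mRNA described above, whose part was not tested. Synaptogyrin 1, encoded by Syngr1 (ENSMUSG00000022415.12, chromosome 15 from 80091334 to 80119501), is a vesicle protein of the synaptophysin kind. Syngr1-201, of 4180 bases, held 98.2% to 99.6% of Syngr1 TPM in every neuronal library. Syngr1-202, of 819 bases, which starts at nearly the same place but ends at 80113441 instead of 80119501, held 84.7% to 85.5% in microglia and 32.7% to 37.3% in astrocytes. Because a short transcript gives fewer reads per molecule, the scale decides how Syngr1 compares: microglia stood at 77.2% of layer V neurons in TPM, while the log2 fold change on counts was -2.31 (adjusted p = 4.1e-15).

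**Figure D5:**
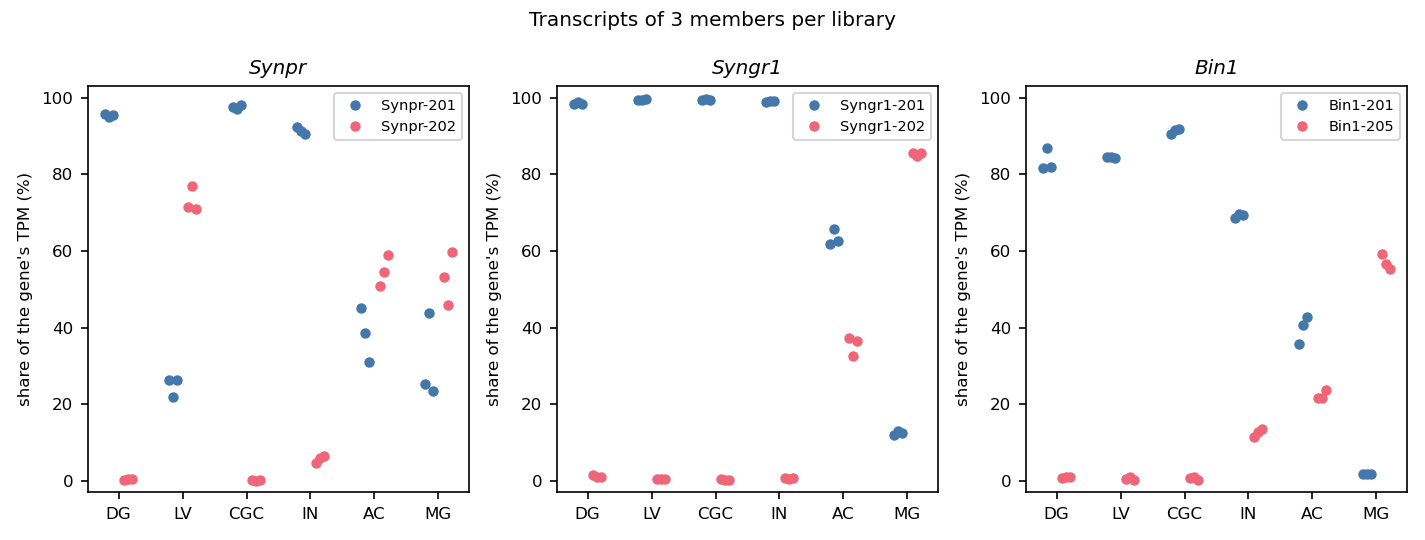
Share of each gene's TPM held by 2 transcripts of Synpr, Syngr1 and Bin1 in each of the 18 libraries, with cell types abbreviated as DG (dentate granule), LV (layer V), CGC (cerebellar granule), IN (interneuron), AC (astrocyte) and MG (microglia). Synpr-202 leads in LV at 71.0% to 76.8%, and Syngr1-202 and Bin1-205 lead in MG.

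The leading transcript was the same in all 6 cell types for 42 of the 52 members and differed for 10, among them 7 in which neuronal types differed (Syt6, Syt17, Synpr, Syn2, Erc2, Dnm1 and Synj1). For Dnm1, Dnm1-205 led in dentate granule cells (28.8% to 33.7%), Dnm1-214 in layer V neurons (37.1% to 39.3%) and Dnm1-201 in cerebellar granule cells (32.9% to 35.1%) and interneurons (46.6% to 47.9%). For Syt17, Syt17-201 held 68.3% to 73.9% in dentate granule cells and 9.73% to 12.5% in interneurons, where Syt17-202 held 58.6% to 65.2%. The Syt6 shares in dentate and layer V libraries rest on less than 2 TPM for the whole gene and ranged from 0 to 100 between replicates.

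Of 72 further presynaptic genes listed beside the 52 (other SNAREs and their regulators, synaptotagmins, active zone, Rab and endocytosis genes), 71 were in the tables and 68 were tested. In neurons against glia, 25 were called higher and 16 lower, where 15.9% and 30.3% of all genes were. Their median log2 fold change was 0.55. Cadps2, a priming factor related to Unc13, was the highest of them (log2 fold change 3.62, adjusted p = 1.4e-19), at 604 ± 6.00 TPM in cerebellar granule cells and between 32.2 and 86.8 TPM, as means, in the other neurons. Syngr2, the synaptogyrin of non-neuronal cells, was the lowest (log2 fold change -6.58, adjusted p = 9.1e-22), at 309 ± 9.69 TPM in microglia and at most 3.23 TPM, as a mean, in any neuronal type (SD, n = 3). Several more were close to 0 in cerebellar granule cells alone among neurons. Stxbp6 was at 0.125 ± 0.0734 TPM there and at 226 ± 19.1 in dentate granule cells, and Rimbp2 was at 0.289 ± 0.0558 TPM there and at 124 ± 7.32 in dentate granule cells (SD, n = 3). Among neurons, dentate granule cells had 14 of the 68 higher and 5 lower, layer V neurons 9 and 8, cerebellar granule cells 16 and 14, and interneurons 10 and 6. The background shares given above apply, and the shares in dentate granule cells, layer V neurons and interneurons lay near them. Against the other neurons, the 3 largest log2 fold changes upward were those of Stxbp6 (5.06), Sypl2 (3.65) and Rimbp2 (2.99) in dentate granule cells, of Rimbp2 (3.24), Synj2 (2.30) and Syt16 (2.05) in layer V neurons, of Unc13d (4.87), Cadps2 (3.44) and Stxbp5l (2.50) in cerebellar granule cells, and of Rab27b (3.22), Syngr2 (2.70) and Rimbp2 (2.33) in interneurons. Rimbp2 was among these for 3 types, each set against a mean that includes its level near 0 in cerebellar granule cells. The part of the oligodendrocyte mRNA described above in the Syngr2 value of interneurons was not tested.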

How the data were processed

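Ribosome-bound mRNA of 18 replicates (22 libraries) was analysed. Adapters were removed by the authors (cutadapt 3.5), who ran kallisto 0.46.2 on a GENCODE transcript set and deposited estimated counts and TPM per transcript. Here both were summed per gene. Estimated counts were rounded, filtered with filterByExpr and tested with edgeR 4.0.16 (TMM, quasi-likelihood, all 18 replicates in 1 fit). Summed counts are not corrected for transcript length, so a fold change can differ from a TPM ratio where transcripts of unequal length are used. Paralog ratios used log2 of TPM plus 0.1 and exact permutation tests. Every member could be named. Per-library values went to the paralog families, to the 3 called members with the largest log2 fold change in each direction of a comparison and to the most abundant of each role, and of other presynaptic genes those ranked in the same way could be named. The members and lists were chosen with earlier results of these data known. Alternatives included DESeq2 1.42.0, limma 3.58.1, left-out replicates, batch 1 alone and a replicate block. On simulated dentate comparisons, 100 of 100 genes were recovered at 2-fold and at 4-fold each (19271 genes). Where the labels do not say that replicates were separate animals, p-values measure the spread between these samples.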

Additional observations from a re-analysis of the deposited data

How the results depend on the processing

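Of 158 called member results, 116 kept their direction and call under every alternative run for them, and 42 lost the call or turned in at least 1. With the replicate block the counts were the same as without it (43 higher in neurons). Deviations of same-numbered libraries correlated between -0.10 and 0.11, and those of differently numbered libraries between -0.12 and 0.13. These values show no pairing by number, but they cannot tell whether libraries of different cell types came from the same animals. Leaving out 1 replicate gave 42 to 43 higher and 1 to 1 lower in neurons, 10 to 12 and 15 to 19 in dentate granule cells, 7 to 8 and 5 to 6 in layer V neurons, 15 to 15 and 10 to 10 in cerebellar granule cells, 11 to 11 and 6 to 8 in interneurons, and 24 to 29 and 2 to 2 in astrocytes against microglia. The 19 lower and 10 higher in dentate granule cells came without replicate 3. Paralog ratios past the threshold ranged from 0 to 10 in dentate granule cells, 0 to 5 in layer V neurons, 0 to 8 in cerebellar granule cells and 0 to 9 in interneurons, the 0 arising because a type with 2 replicates cannot pass the exact test after adjustment. Members lower in neurons against glia numbered 4 within batch 1 (with astrocytes as the only glia), 0 without cerebellar granule cells and 4 by adjusted p alone, against 1. Layer V neurons had 5 higher by limma on log2(TPM + 1), against 8. That scaling moved the median of all genes in neurons against glia from -0.18 to 0.05 and the higher share of calls from 34.4% to 49.2%, and in layer V neurons from 0.04 to -0.11 and from 65.3% to 42.5%. By adjusted p alone, members higher and lower numbered 17 and 33 in dentate granule cells (36.5% and 27.6% of all genes), 28 and 17 in layer V neurons (35.9% and 31.7%), 25 and 21 in cerebellar granule cells (34.9% and 43.0%) and 24 and 21 in interneurons (36.0% and 28.4%), with 46 higher in astrocytes than in microglia (39.8%). Against each of the other 3 neuronal types the counts were 4 and 5, 2 and 0, 7 and 9, and 4 and 1, in the order dentate, layer V, cerebellar, interneuron. Batch 1 holds no interneurons or microglia. Neurons against glia there set dentate granule cells, layer V neurons and cerebellar granule cells against astrocytes alone. The references of other neurons there lacked interneurons, so the batch 1 values differ in cell types as well as in batch. Within batch 1 the direction turned for Syt10 and Syt11 in neurons against glia (both -0.23) and Syt6 in layer V neurons (0.05). Without cerebellar granule cells it turned for Doc2a (-0.99), Rab3b (-1.94) and Unc13c (0.59) in dentate granule cells, Syt2 (0.21), Rab3b (-1.22) and Unc13c (0.12) in layer V neurons, and Syt12 (0.08) and Syt17 (-1.83) in interneurons. For the other changes the cause was not tested. The references without cerebellar granule cells and the rule over each type were chosen after seeing the data. Within batch 1 no value could be had for interneurons or for astrocytes against microglia. Levels under about 1 TPM rest on few counts.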
